A study of Rattus norvegicus with 6 samples.

Results

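The genes described here encode mechanosensitive ion channels of the PIEZO, TRP and TMEM63 families together with the acid-sensing channel Asic2, read in the centre of a contused rat spinal cord. They were chosen by name, as the rows of the deposited count table whose gene name is Piezo1, Piezo2, Trpv2, Trpv4, Trpm7, Pkd2, Tmem63a, Tmem63b, Tmem63c or Asic2. Of these 10 names, 9 had a row among the 33455 genes of the table, and all 9 passed the low-count filter that left 17066 genes for testing. Trpv2 had no row and is not analysed here. The Piezo Gel+US group (n = 3 libraries) and the Gel+US group (n = 3 libraries) both came from wild type rats with a contusion of the T9 segment. In both, ultrasound was applied over the implantation site at 100 Hz and 1.0 W/cm2 for 10 min a day over 4 weeks, so the comparison concerns the piezoelectric gel, which turns strain into charge, and not ultrasound or injury as such. Strain, age and sex of the animals are not given in the sources used here, and uninjured or unstimulated cord was not analysed here.

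A mechanosensitive channel opens when its membrane is stretched or its tethers are pulled, and so turns force into an ion current. PIEZO proteins form large three-bladed trimers that pass calcium and other cations. PIEZO1 is best known from blood vessels, red cells and immune cells, whereas PIEZO2 serves touch and body-position sense in sensory neurons. TMEM63 proteins are relatives of the plant osmosensing OSCA channels. Several TRP channels respond to swelling or stretch indirectly, and ultrasound can itself open some of these channels in cultured cells.

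Markers of the cord were present in all 6 libraries: 0 of the neuron, astrocyte and oligodendrocyte markers found in the table were at 0 counts in any library, although Gfap is not analysed here. Piezo Gel+US replicate 2 stood apart in Schwann cell markers, while fibroblast RNA was high in both libraries numbered 2. Summed over 12 fibroblast genes it reached 6396 CPM (counts scaled to library size) in the Piezo Gel+US one and 7357 CPM in the Gel+US one, where the other 4 libraries had 1046 to 1631 CPM. Total counts were 18672101 to 21436820 in Piezo Gel+US and 17212653 to 20198203 in Gel+US.

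The 9 channels covered a wide range of levels. Levels between genes are given as RPKM, which is CPM divided by the gene length of the deposited table in kilobases. Averaged over the 6 libraries, the order was Tmem63b (31.2 ± 3.20 RPKM), Trpm7 (17.5 ± 0.924), Tmem63a (16.6 ± 6.27), Pkd2 (14.3 ± 3.84), Tmem63c (8.37 ± 4.43), Piezo1 (7.44 ± 2.56), Asic2 (5.16 ± 2.15), Piezo2 (2.52 ± 2.75) and Trpv4 (0.590 ± 0.381), each ± SD. Tmem63b lay above Trpm7 in all 6 libraries with no overlap of their ranges. For the other 7 of the 8 neighbouring pairs in this order the ranges overlapped, and the first gene of the pair was higher in 3 to 5 of the 6 libraries. It was higher in 5 of 6 for Pkd2 over Tmem63c, Asic2 over Piezo2 and Piezo2 over Trpv4. These differences were not tested. Scaling by unadjusted library totals left the order as it was, and ordering by the median exchanged Trpm7 and Tmem63a. The median of Piezo2 was 1.44 RPKM, below its mean of 2.52 RPKM, with Piezo Gel+US replicate 2 far above the other 5 libraries.

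**Figure D1:**
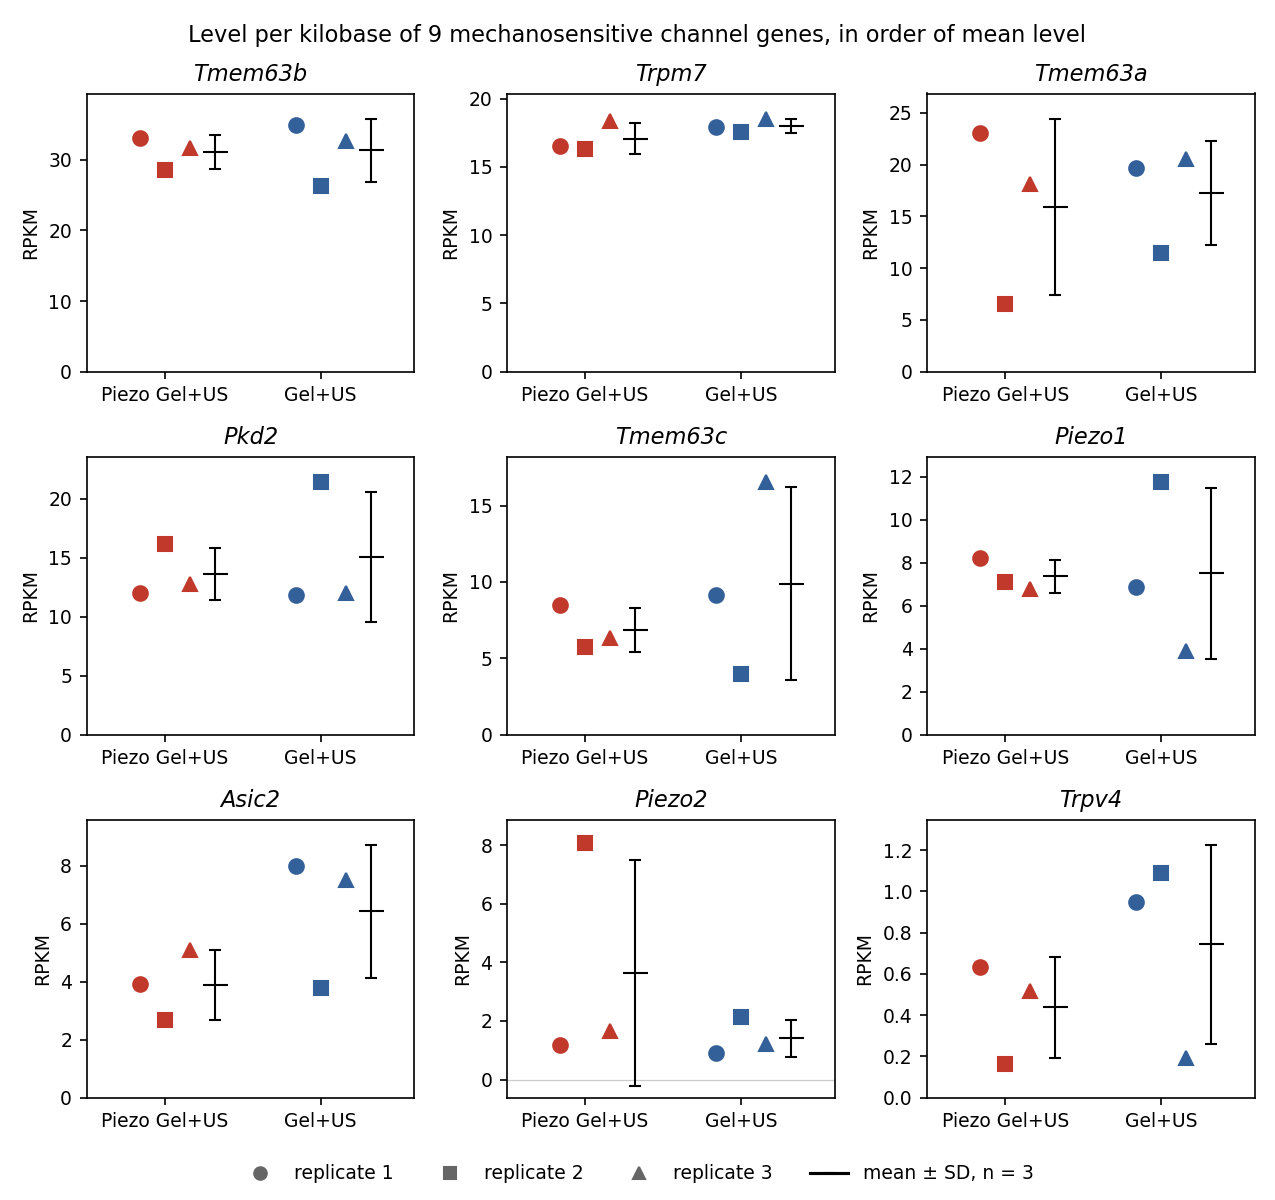
RPKM (linear axes that include 0) of each channel gene by group, with a symbol for each replicate and a black bar for the mean ± SD of 3 libraries. The panels run from Tmem63b, at 31.2 RPKM over the 6 libraries, to Trpv4, at 0.590, and the groups overlap in every panel.

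No channel was called between the groups. By the edgeR quasi-likelihood test 0 of the 9 members had an adjusted p below 0.05, as had 0.00% of all genes tested (0 of 17066). At an unadjusted p below 0.05 there were also 0 of 9 members, against 2.10% of all genes tested (359 genes). Higher in Piezo Gel+US were 1.38% of all tested, and lower 0.721%. DESeq2, run without the low-count filter, gave 0 members and 652 of 23195 genes at that level. The groups overlapped in all 9 members, whereas they did not overlap in 6.81% of genes tested, 2.73% lower and 4.08% higher in Piezo Gel+US. The log2 fold change was below 0 in 8 of the 9 members and above 0 in Piezo2 alone, with a median of -0.11, and was below 0 in 52.9% of genes tested, with a median of -0.021. Adjusted p-values of the members lay between 0.994 and 0.997. With so few libraries the 95% intervals were wide except for Trpm7 and Tmem63b, and intervals that cover 0 do not show that levels were alike. In bulk tissue fewer cells of a type and less RNA per cell cannot be told apart.

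**Figure D2:**
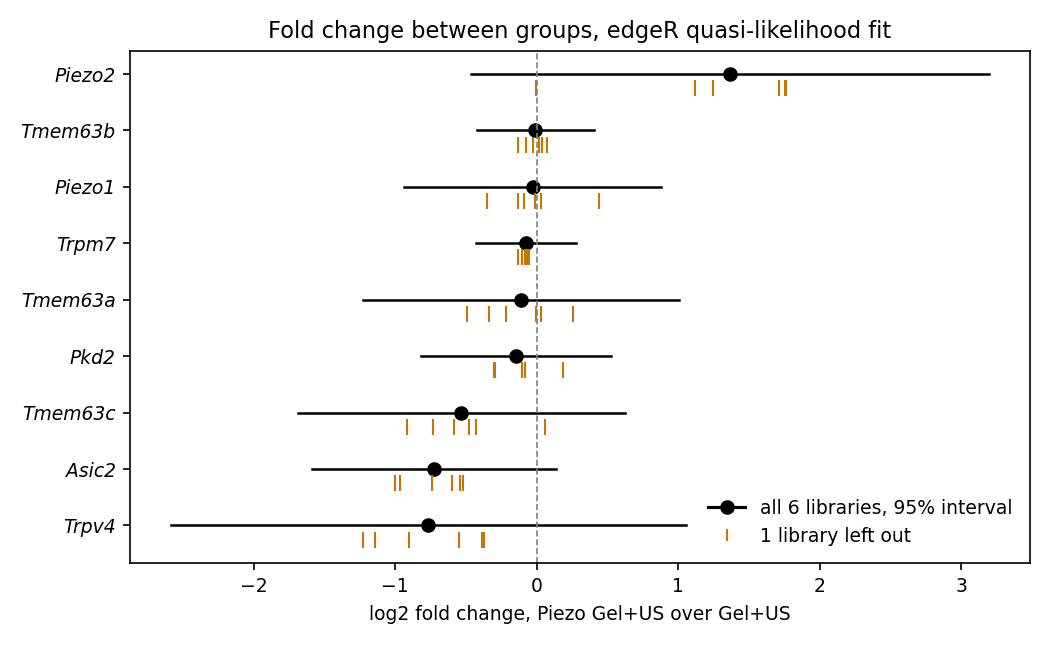
log2 fold change of each channel gene, Piezo Gel+US over Gel+US, as a black point with its 95% interval from the edgeR quasi-likelihood fit of all 6 libraries; orange ticks are the 6 fits that each left out 1 library. The 9 intervals of this fit, which has no replicate block, all cover 0, and Piezo2, at 1.36, has 1 tick near 0, the fit without Piezo Gel+US replicate 2.

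Piezo1 (gene 116886293, 8187 bases) encodes the more broadly expressed PIEZO channel. It measured 8.21, 7.13 and 6.76 RPKM in Piezo Gel+US replicates 1 to 3, against 6.87, 11.8 and 3.91 RPKM in Gel+US replicates 1 to 3. The 3 Piezo Gel+US libraries lay close together and inside the span of the Gel+US libraries, whose replicate 2 was the highest and replicate 3 the lowest of all 6. The coefficient of variation of CPM was 10.2% within Piezo Gel+US and 52.8% within Gel+US, a difference in spread that was not tested. The group means were 7.37 ± 0.755 RPKM in Piezo Gel+US and 7.52 ± 3.97 RPKM in Gel+US (log2 fold change -0.029, 95% interval -0.94 to 0.88, edgeR adjusted p = 0.997). Which Gel+US library is left out sets the sign of this value, 0.44 without replicate 2 and -0.35 without replicate 3.

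Piezo2 (gene 116884327, 9906 bases) encodes the channel of touch receptors and proprioceptors. It measured 1.18, 8.06 and 1.66 RPKM in Piezo Gel+US replicates 1 to 3, against 0.895, 2.12 and 1.22 RPKM in Gel+US replicates 1 to 3. A single library, Piezo Gel+US replicate 2, was high, at 1588 counts where the others had 177 to 378, and the other 5 libraries of both groups intermingled. Its log2 fold change was 1.36 (95% interval -0.47 to 3.20, edgeR adjusted p = 0.994) and -0.0035 without that library. Matching libraries by replicate number, a pairing the labels do not give, Piezo2 stood higher with the piezoelectric gel in 3 of 3 cases. The share of all genes tested that were so ordered is not reported here. With the replicate number as a block its log2 fold change was 0.93 (95% interval 0.035 to 1.82, edgeR unadjusted p = 0.0440, adjusted p = 0.855). Without Piezo Gel+US replicate 1 its unadjusted p was 0.0476 in the edgeR fit (adjusted p = 0.924), where 3.83% of genes tested were below 0.05. Piezo1 outweighed Piezo2 per length by 6.96 and 4.08 times in Piezo Gel+US replicates 1 and 3 and by 7.68, 5.55 and 3.20 times in Gel+US replicates 1 to 3. In Piezo Gel+US replicate 2 the ratio of Piezo1 to Piezo2 was 0.884.

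In that same library the Schwann cell markers were highest. Their score, the mean of log2 CPM over 9 genes after centring each gene on its mean, was 1.98 there and -0.96 to 0.24 in the other 5 libraries. The score of the skeletal muscle markers was also highest there, at 1.06 against -0.72 to 0.20 in the other 5 libraries, but single markers differed. Their sum over 6 genes was 94.1 CPM there and 19.1 to 34.2 CPM elsewhere, but 72.1 CPM of it was the muscle actin Acta1, at 1.11 to 3.00 CPM elsewhere. Ckm, the muscle creatine kinase, had 199 counts there and 0 to 6 in each other library. The troponin Tnnc2 was lowest in that library, at 4.78 CPM against 8.11 to 12.9 CPM, and Tnnt3 was highest in Gel+US replicate 2, at 17.8 CPM. Markers of sensory ganglion neurons, the cells in which Piezo2 is best known, were not raised there: their sum was 97.8 CPM over 8 genes, within the 72.8 to 524 CPM of the other 5 libraries. The nociceptor sodium channels Scn10a and Scn11a had 0 to 10 and 1 to 6 counts per library, and the nociceptor receptor Mrgprd 0 to 1. The part of Schwann cell or muscle RNA in the Piezo2 value was not tested.

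Trpv4 (gene 116885478, 3113 bases), an osmosensitive and warmth-sensitive cation channel, was the scarcest member, with 10 to 61 counts per library, so that its values carry more counting error than those of the others. It measured 0.634, 0.162 and 0.515 RPKM in Piezo Gel+US replicates 1 to 3, against 0.950, 1.09 and 0.193 RPKM in Gel+US replicates 1 to 3. Each group held a library near the bottom, replicate 2 in Piezo Gel+US and replicate 3 in Gel+US. The log2 fold change was -0.76 (95% interval -2.58 to 1.06, edgeR adjusted p = 0.994), and lay between -1.23 and -0.37 when 1 library was left out.

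Trpm7 (gene 116901921, 7302 bases) encodes a magnesium- and calcium-permeable channel fused to a protein kinase, found in most cells. It measured 16.6, 16.3 and 18.3 RPKM in Piezo Gel+US replicates 1 to 3, against 17.9, 17.6 and 18.5 RPKM in Gel+US replicates 1 to 3. Its highest library was only 1.14 times its lowest. The coefficient of variation over the 6 libraries was 5.27%, and 0.990% of genes tested had a lower one. The log2 fold change was -0.077 (95% interval -0.43 to 0.28, edgeR adjusted p = 0.994). Matched by replicate number, all 3 differences were below 0, at -0.11, -0.11 and -0.014 on the log2 scale. How many of all genes tested were likewise lower in all 3 is not reported here.

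Pkd2 (gene 116912192, 5478 bases) encodes polycystin-2, a TRP relative that partners polycystin-1 in primary cilia and also sits in the endoplasmic reticulum. It measured 11.96, 16.1 and 12.7 RPKM in Piezo Gel+US replicates 1 to 3, against 11.8, 21.4 and 11.97 RPKM in Gel+US replicates 1 to 3. In each group replicate 2 was the high library and the other libraries lay together. The log2 fold change was -0.15 (95% interval -0.82 to 0.53, edgeR adjusted p = 0.994) and 0.19 without Gel+US replicate 2.

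The 3 Tmem63 genes encode single-subunit channels opened by membrane tension or hypo-osmotic swelling, and in people variants of TMEM63A are a cause of delayed myelination in infancy. Tmem63b (gene 116899127, 3483 bases), the most abundant member here, measured 33.2, 28.6 and 31.6 RPKM in Piezo Gel+US replicates 1 to 3, against 35.0, 26.4 and 32.7 RPKM in Gel+US replicates 1 to 3. It was nearly level (log2 fold change -0.011, 95% interval -0.42 to 0.40, edgeR adjusted p = 0.997), with a coefficient of variation of 10.2% that was undercut by 9.36% of genes tested. Tmem63a (gene 116911311, 3438 bases) measured 23.1, 6.55 and 18.2 RPKM in Piezo Gel+US replicates 1 to 3, against 19.7, 11.4 and 20.5 RPKM in Gel+US replicates 1 to 3. Replicate 2 was the low library in both groups, and the log2 fold change of -0.11 (95% interval -1.23 to 1.01, edgeR adjusted p = 0.994) was 0.25 without Piezo Gel+US replicate 2. Tmem63c (gene 116905315, 5327 bases) measured 8.47, 5.72 and 6.34 RPKM in Piezo Gel+US replicates 1 to 3, against 9.15, 3.98 and 16.6 RPKM in Gel+US replicates 1 to 3. Its spread came from Gel+US, which held both the highest and the lowest library, and the log2 fold change of -0.53 (95% interval -1.69 to 0.62, edgeR adjusted p = 0.994) was 0.057 when Gel+US replicate 3 was left out and -0.92 when replicate 2 was.

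Per length, Tmem63b made up most of the Tmem63 RNA in all libraries but Gel+US replicate 3, with 51.2%, 69.9% and 56.4% of the summed RPKM in Piezo Gel+US replicates 1 to 3 and 54.8%, 63.1% and 46.8% in Gel+US replicates 1 to 3. Tmem63a supplied 16.1% in Piezo Gel+US replicate 2 and 27.4% to 35.7% in the other 5 libraries. Tmem63c supplied 23.7% in Gel+US replicate 3 and 9.53% to 14.3% in the other 5. The sum of all 3 was low in both replicates numbered 2, at 40.8 RPKM in Piezo Gel+US and 41.8 RPKM in Gel+US, against 56.1 to 69.8 RPKM in the remaining libraries.

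Asic2 (gene 116909065, 4457 bases) encodes a proton-gated sodium channel of neurons that belongs to the same superfamily as the touch channels of nematodes. It measured 3.92, 2.69 and 5.08 RPKM in Piezo Gel+US replicates 1 to 3, against 7.98, 3.79 and 7.52 RPKM in Gel+US replicates 1 to 3. The groups overlapped only through Gel+US replicate 2, which lay below Piezo Gel+US replicates 1 and 3. The means were 3.90 ± 1.199 RPKM in Piezo Gel+US and 6.43 ± 2.30 RPKM in Gel+US (log2 fold change -0.72, 95% interval -1.59 to 0.14, edgeR unadjusted p = 0.0874, adjusted p = 0.994), the lowest p among the members. Matched by replicate number, a pairing the labels do not give, Asic2 was lower with the piezoelectric gel in 3 of 3 cases. Of the 9 members, 2 were lower and 1 higher in all cases, and the share over all genes tested is not reported here. With the number as a block its log2 fold change was -0.70 (95% interval -1.19 to -0.21, edgeR unadjusted p = 0.0131, adjusted p = 0.855). In that fit 2 of the 9 members, Asic2 and Piezo2, were at an unadjusted p below 0.05, against 5.78% of all genes tested. Leaving out Gel+US replicate 2 put Asic2 and Tmem63c at edgeR unadjusted p-values of 0.0155 and 0.0288 (adjusted p = 0.744 each), where 4.46% of genes tested were below 0.05. Neuron markers were lower in Piezo Gel+US in 12 of 12 genes tested (median log2 fold change -0.53, 0 called), against 52.9% of all genes tested. Their sum was 6816, 2594 and 15201 CPM in Gel+US replicates 1 to 3, and 2171 to 7692 CPM in Piezo Gel+US. The part of neuronal RNA in the Asic2 value was not tested.

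The members differed widely in their spread over the libraries. The median coefficient of variation of CPM over the 6 libraries was 26.3% for all genes tested. Trpm7 and Tmem63b lay below it, Pkd2 beside it at 26.8%, and Piezo1 (34.4%), Tmem63a (37.9%), Asic2 (41.6%), Tmem63c (52.9%), Trpv4 (64.6%) and Piezo2 (109%) above it. For Piezo2, 98.3% of genes tested had a lower value, and within Gel+US alone its coefficient of variation was 44.9%. The lowest library was Piezo Gel+US replicate 2 for 4 members (Trpv4, Trpm7, Tmem63a and Asic2).

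**Figure D3:**
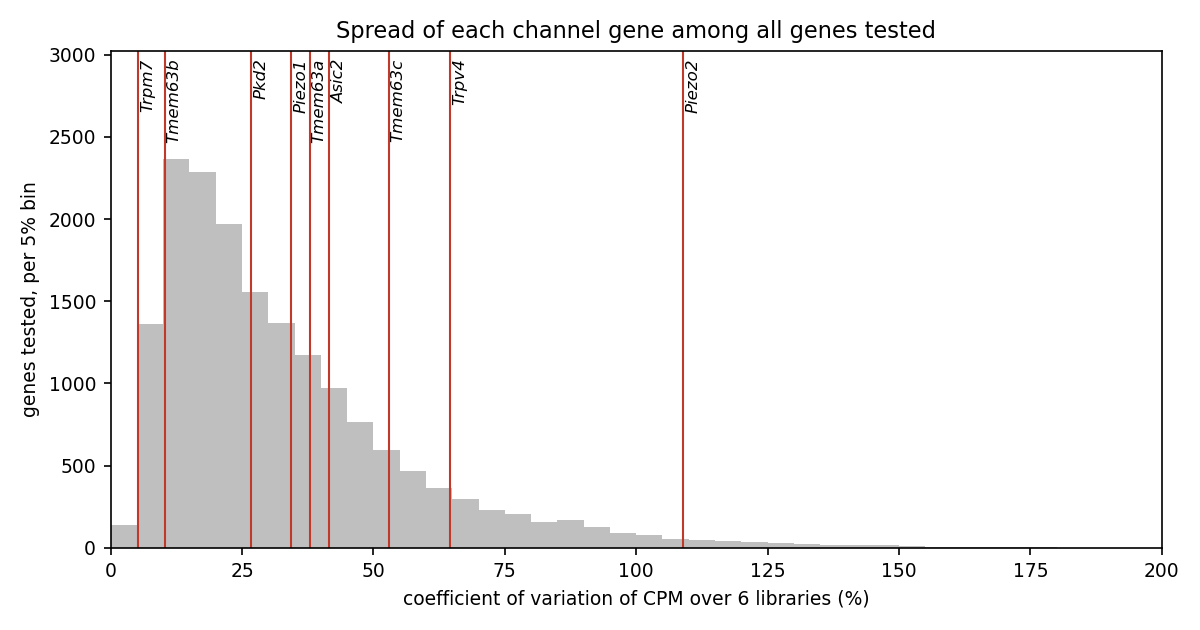
Number of genes tested (y axis) by coefficient of variation of CPM over the 6 libraries (x axis, percent, drawn to 200), with a red line for each channel gene. Trpm7, at 5.27%, stands at the left edge and Piezo2, at 109%, far to the right of the median of 26.3%.

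Tmem63a and Tmem63c differed in their highest and lowest libraries, but their RNA ran partly together over the libraries (r = 0.615). Promoter windows are shown for these genes and for the steadiest member, Trpm7. Each is 250 bases before to 50 bases after the gene's start in RefSeq, build GRCr8 of the Norway rat, 5′ to 3′ on the gene's strand. RefSeq held such a window for 8 of the 10 members by symbol. Capitals mark every match, on either strand, to 1 of 6 short motifs: the SOX core ACAAAG, the TEAD core GGAATG, the TATA box TATAAA, the GC box GGGCGG, the CCAAT box CCAAT and the E-box CACGTG.
Trpm7 (chr3:134588064-134588363, minus strand): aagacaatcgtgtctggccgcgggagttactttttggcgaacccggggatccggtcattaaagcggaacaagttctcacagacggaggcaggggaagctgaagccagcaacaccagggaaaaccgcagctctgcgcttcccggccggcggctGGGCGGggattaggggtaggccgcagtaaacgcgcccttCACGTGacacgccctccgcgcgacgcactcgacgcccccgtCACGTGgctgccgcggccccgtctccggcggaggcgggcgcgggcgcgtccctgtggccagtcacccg
Tmem63a (chr13:95194960-95195259, plus strand): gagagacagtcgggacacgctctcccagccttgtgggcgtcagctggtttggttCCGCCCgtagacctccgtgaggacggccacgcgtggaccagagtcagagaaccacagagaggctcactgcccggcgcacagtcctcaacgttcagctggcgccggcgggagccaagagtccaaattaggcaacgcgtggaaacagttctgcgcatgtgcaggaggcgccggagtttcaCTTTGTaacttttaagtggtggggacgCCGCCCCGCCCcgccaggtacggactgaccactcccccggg
Tmem63c (chr6:112403643-112403942, plus strand): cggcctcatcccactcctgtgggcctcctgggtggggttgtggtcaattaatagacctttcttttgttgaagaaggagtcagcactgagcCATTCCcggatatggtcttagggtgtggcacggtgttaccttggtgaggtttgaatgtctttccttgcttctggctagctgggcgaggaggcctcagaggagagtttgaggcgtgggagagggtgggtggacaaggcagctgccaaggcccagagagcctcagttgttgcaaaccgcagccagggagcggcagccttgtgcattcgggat

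The Trpm7 window held 38 CpG dinucleotides and 68% G and C, with 1 GC box and 2 E-boxes. The Tmem63a window held 26 CpG and 63.7% G and C, with 3 GC boxes, of which 2 overlap by 1 letter, and 1 SOX core. The Tmem63c window held 8 CpG and 57% G and C, with 1 TEAD core and no other match. Over 33469 promoters of the same length the median was 7 CpG and 51.7% G and C, and 33.1% held a GC box, 18.8% a SOX core, 14.2% a TEAD core, 14.2% a TATA box, 37.5% a CCAAT box and 6.42% an E-box. These matches describe letters and say nothing of a factor being bound.

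To ask which cells the channel RNA may come from, each member's log2 CPM was set against the score of 15 marker lists, a score being the mean of the list's log2 CPM values after centring each gene. Over 6 libraries that differ widely in their tissue make-up, none of the 135 relations had an adjusted p below 0.05 (exact permutation test over pairings, Benjamini-Hochberg over the 135, smallest adjusted p = 0.131), and 36 had an unadjusted p below 0.05. Marker lists that move together give like values for the same gene. All are therefore given as a description of the order of the libraries, and the source cell of each channel was not tested. Where r is given without 2 libraries, these were the ones farthest from the median score, and they differ between lists.

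**Figure D4:**
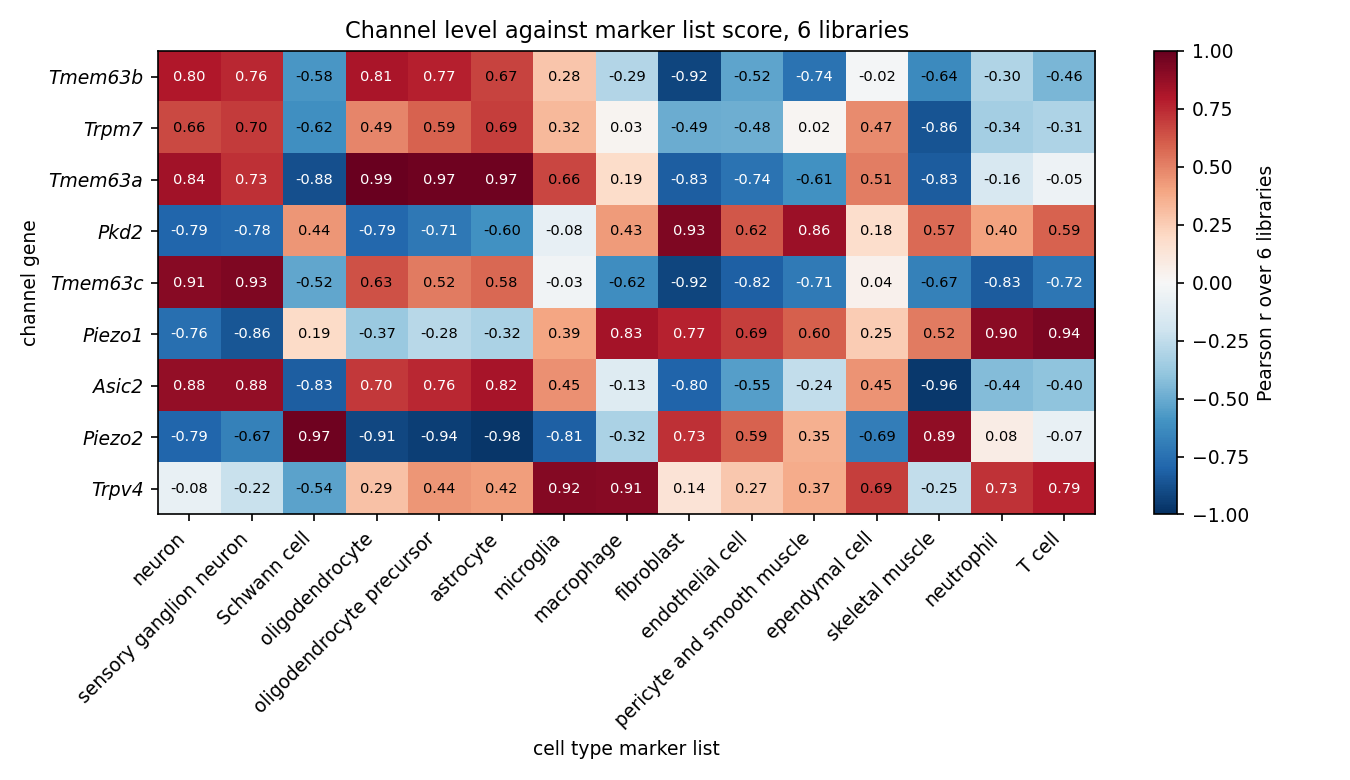
Pearson r over the 6 libraries between each channel gene (rows, log2 CPM, in order of mean level) and the score of each marker list (columns). Tmem63a is near 1 for the oligodendrocyte list (0.99), Piezo2 for the Schwann cell list (0.97), and Piezo1 and Pkd2 are positive where Tmem63b and Tmem63c are negative for the fibroblast list.

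Tmem63a followed the oligodendrocyte markers library by library. The relation had r = 0.992 and rho = 1.00 (exact permutation p = 0.00139, the smallest that 720 pairings can give for r, and p = 0.00278 for rho, n = 6; adjusted p = 0.131 and 0.188), and r = 0.934 without both replicates numbered 2. The score of the oligodendrocyte list was -0.75 in Piezo Gel+US replicate 2 and -0.37 in its Gel+US counterpart, against 0.22 to 0.42 in the other 4 libraries. Tmem63a also tracked the precursor and astrocyte lists (r = 0.9747 and 0.970), but without the 2 libraries farthest from the median of each score r was -0.200 and 0.130, so those relations rested on such libraries. The neuron list held up, with r = 0.843 (rho = 0.829, exact permutation p = 0.0250 and 0.0583, n = 6; adjusted p = 0.142 and 0.272) and 0.900 without its 2 farthest libraries. In all, 7 of the 15 lists had an unadjusted exact permutation p below 0.05 with Tmem63a, against 36 of all 135 relations. Of these, the Schwann cell (r = -0.877), fibroblast (r = -0.826) and skeletal muscle lists (r = -0.832) ran against it. Over all 6 libraries the positive relation was shared with the precursor, astrocyte and neuron lists, and is not particular to oligodendrocyte markers.

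Tmem63c and Asic2 were high where neuron markers were, and had equally close relations with other lists. For Tmem63c, r with the neuron list was 0.912 (rho = 0.943, exact permutation p = 0.0125 and 0.0167, n = 6; adjusted p = 0.138 and 0.265) and 0.968 without the 2 farthest libraries, and its r with the sensory ganglion list was 0.930. Tmem63c ran as closely against the fibroblast list (r = -0.921, rho = -1, exact permutation p = 0.00417 and 0.00278, n = 6; adjusted p = 0.131 and 0.188), with -0.986 without the 2 farthest libraries. With the astrocyte list its rho was 0.943 and its r 0.575, or 0.952 without the 2 farthest libraries. The library with most neuronal RNA, Gel+US replicate 3, at 15201 CPM over 12 neuron genes, was also the one with most Tmem63c. For Asic2, r with the neuron list was 0.882 (rho = 0.886, exact permutation p = 0.0250 and 0.0333, n = 6; adjusted p = 0.142 and 0.265) and 0.715 without the 2 farthest libraries. Asic2 also ran with the astrocyte list (r = 0.823, exact permutation p = 0.00833, n = 6, adjusted p = 0.131; 0.783 without the 2 farthest libraries) and against the skeletal muscle list (r = -0.961, exact permutation p = 0.00417, n = 6, adjusted p = 0.131). Tmem63b ran with the oligodendrocyte (r = 0.814) and neuron lists (r = 0.799) and against the fibroblast list (r = -0.922). Without the 2 farthest libraries of each score these were 0.0300, 0.996 and -0.306, so the oligodendrocyte and fibroblast relations rested on those libraries. Pkd2 ran with the fibroblast list (r = 0.932, rho = 0.829, exact permutation p = 0.00556 and 0.0583, n = 6; adjusted p = 0.131 and 0.272; 0.662 without both replicates numbered 2).

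Piezo1 was high where the T cell and macrophage lists were, and Trpv4 where the microglia and macrophage lists were. For Piezo1 the highest r was with the T cell list (r = 0.941, rho = 0.829, exact permutation p = 0.00972 and 0.0583, n = 6; adjusted p = 0.131 and 0.272), with 0.845 when the 2 farthest libraries were left out, and r with the macrophage list was 0.828, or 0.978 without its 2 farthest libraries. The neutrophil relation (r = 0.902) rested on 2 Gel+US libraries, since r was 0.124 without replicates 2 and 3. For the endothelial list, the tissue in which PIEZO1 is best known, r was 0.693, or 0.420 without the 2 farthest libraries. With the microglia list r of Piezo1 was only 0.393. For Piezo1, r was also 0.769 with the fibroblast, 0.597 with the pericyte and smooth muscle and -0.857 with the sensory ganglion list. They were 0.820, 0.857 and -0.229 without the 2 farthest libraries, the first 2 near the 0.845 of the T cell list. For Trpv4, r with the microglia list was 0.916 (rho = 0.943, exact permutation p = 0.00278 and 0.0167, n = 6; adjusted p = 0.131 and 0.265) and 0.849 without the 2 farthest libraries, on counts of at most 61. The macrophage list was nearly as close to Trpv4 (r = 0.911, rho = 0.771, exact permutation p = 0.0222 and 0.103, n = 6; adjusted p = 0.142 and 0.289), with 0.512 without the 2 farthest libraries, and the T cell list had r = 0.790 and rho = 0.886. For Piezo2, r with the Schwann cell list was 0.973 (rho = 0.886, exact permutation p = 0.00972 and 0.0333, n = 6; adjusted p = 0.131 and 0.265) and 0.681 without the 2 farthest libraries. Piezo2 ran as closely against the astrocyte list (r = -0.976, exact permutation p = 0.00833, n = 6, adjusted p = 0.131), the oligodendrocyte precursor list (r = -0.943) and the oligodendrocyte list (r = -0.912), and with the skeletal muscle list (r = 0.886). Without the 2 farthest libraries of each score these were -0.514, -0.128, -0.102 and 0.663, Piezo Gel+US replicate 2 being among those left out. Against the neuron list Piezo2 had r = -0.791 (exact permutation p = 0.0472, n = 6, adjusted p = 0.182), and -0.903 without the 2 farthest libraries. Its r with the sensory ganglion list was -0.673 (exact permutation p = 0.142, n = 6), and -0.935 without Gel+US replicates 2 and 3. For Trpm7, which varied least, r ran from -0.861 with the skeletal muscle list to 0.697 with the sensory ganglion list.

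**Figure D5:**
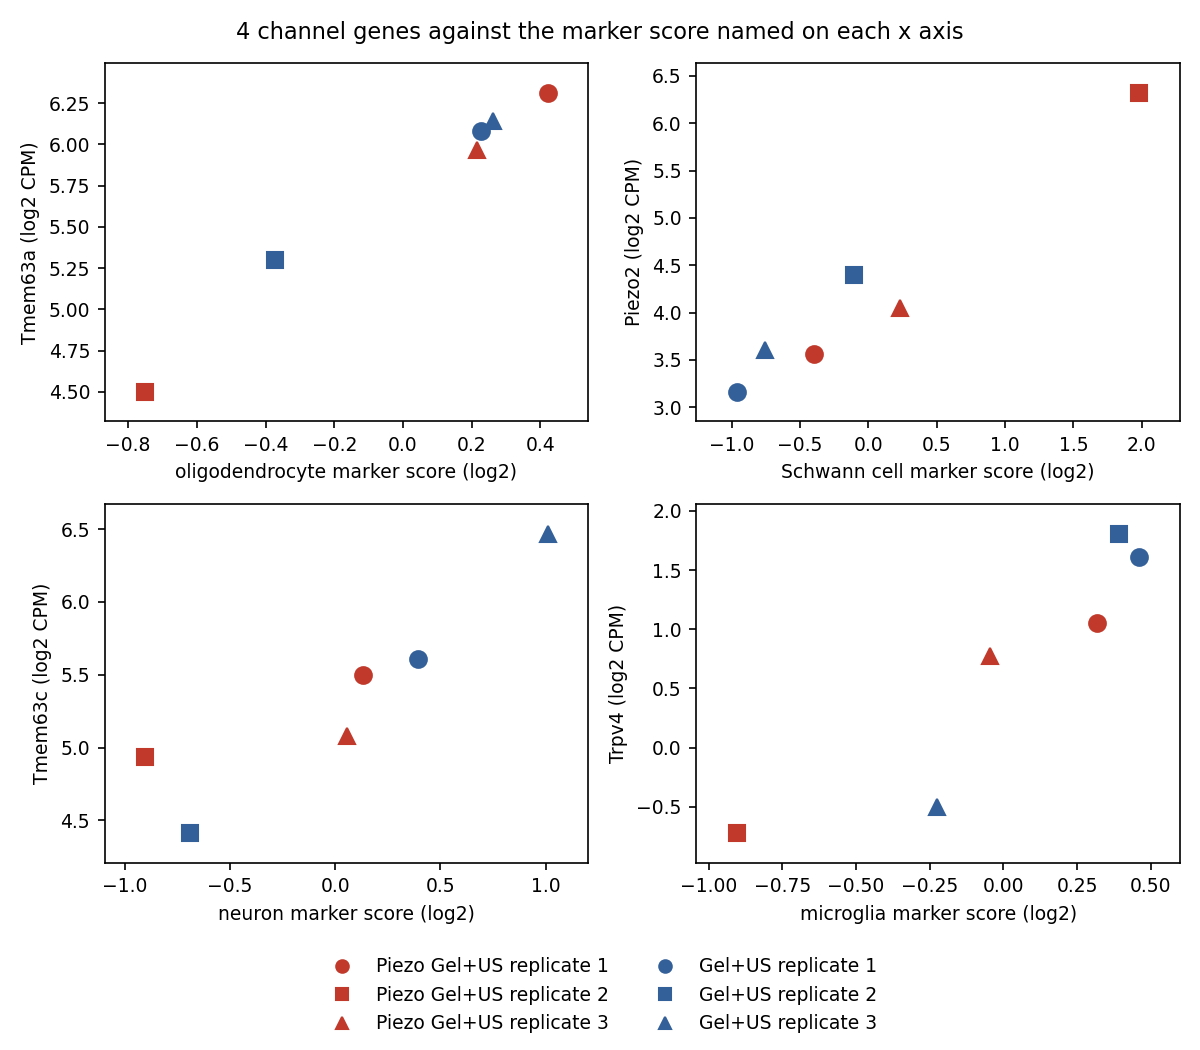
log2 CPM of Tmem63a, Piezo2, Tmem63c and Trpv4 (y axes) against the score of the marker list named on each x axis (log2 units, 0 is the mean of the 6 libraries), 1 symbol per library. Tmem63a falls along a line with both replicates numbered 2 at the low end, and Piezo2 has 1 library, Piezo Gel+US replicate 2, far from the other 5.

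Among 10244 genes of at least log2 CPM 3, those most like each member over the 6 libraries are given as a description, with no p, since the highest of so many r values is high by choice. Most like Piezo1 were Cnn2, an actin-binding calponin, Ddx46 and Sh2b3, an adaptor of cytokine signalling (r of 0.999, 0.998 and 0.997). Most like Piezo2 were the growth factor Fgf7, Mavs and the natriuretic peptide receptor Npr2 (0.999, 0.996 and 0.995). Those of Tmem63a were Nacad, Pgm3 and the neuronal RNA-binding protein Elavl3 (0.999, 0.998 and 0.998). Tmem63b was most like Adgrg1, Zdhhc9 and Diras2 (0.980, 0.976 and 0.972), and Tmem63c most like Ap3d1, Snx19 and the kinesin Kif3a (0.995, 0.993 and 0.993). Asic2 was most like the neuronal genes Nsg2 and Kcnc2, a potassium channel, and Fnbp1l (0.998, 0.992 and 0.997 in the order Nsg2, Kcnc2, Fnbp1l). For Pkd2 they were the coat protein Sec24d, Ptpn2 and Olfml3 (0.988, 0.987 and 0.986), for Trpv4 Pld2, Npc2 and Pask (0.987, 0.987 and 0.977), and for Trpm7 Bhlhe22, Ankrd34b and Ap5s1 (0.994, 0.992 and 0.985).

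Other channels linked to force sensing likewise held no called gene. Of 32 such genes listed, 27 were tested, 9 higher and 18 lower in Piezo Gel+US, with a median log2 fold change of -0.17 and 0 at an unadjusted p below 0.05 in either direction. The lowest p-values belonged to Trpv3, a warmth-sensitive channel, at 41.3 ± 23.6 CPM in Piezo Gel+US and 24.3 ± 5.88 CPM in Gel+US (log2 fold change 0.76), to the large-pore channel Panx1 (7.20 ± 1.204 and 10.2 ± 2.66 CPM in Piezo Gel+US and Gel+US, log2 fold change -0.50) and to Tmc6 (log2 fold change 0.63), and Trpv3 and Tmc6 were highest in Piezo Gel+US replicate 2, at 67.8 and 110.0 CPM. The hair-cell channel Tmc1 (0 to 5 counts), Pkd2l1 (0 to 25), a channel of neurons that contact the cerebrospinal fluid, and Pkd2l2 (0 to 5) fell below the filter. Pkd2l1 had 25 counts in Gel+US replicate 2 and at most 4 in any other library.

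Proteins reported to bind or tune PIEZO channels gave 4 genes higher and 8 lower of 12 tested (median log2 fold change -0.14, 0 called, 0 at an unadjusted p below 0.05). Cdh1, E-cadherin, measured 47.2, 286 and 37.0 CPM in Piezo Gel+US replicates 1 to 3, against 34.3, 68.8 and 27.5 CPM in Gel+US replicates 1 to 3, so that its log2 fold change of 1.504 came from the library in which Piezo2 was high. Tmem120a had a log2 fold change of 0.26 and N-cadherin, Cdh2, of -0.31. Stoml3, a stomatin relative that sensitises touch channels, had 2 to 18 counts per library and was not tested.

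The YAP and TAZ pathway, a transcriptional route that reads cell stretch, had 22 of 31 genes tested higher and 9 lower in Piezo Gel+US (median log2 fold change 0.23, 0 called), against 47.1% of all genes tested with a value above 0. At an unadjusted p below 0.05 there was 1 gene in each direction, where 1.38% of all genes tested were higher and 0.721% lower. Gadd45b, a stress-response gene, measured 27.9 ± 8.02 CPM in Piezo Gel+US and 16.1 ± 4.37 CPM in Gel+US (log2 fold change 0.79, 95% interval 0.097 to 1.48, edgeR adjusted p = 0.994). Its groups narrowly did not overlap, with a lowest Piezo Gel+US value of 21.8 CPM and a highest Gel+US value of 21.2 CPM. Tgfb2, a TGF-beta ligand, measured 16.6, 12.5 and 17.3 CPM in Piezo Gel+US replicates 1 to 3, against 23.8, 31.0 and 22.2 CPM in Gel+US replicates 1 to 3, with no overlap (log2 fold change -0.73, 95% interval -1.26 to -0.20, edgeR adjusted p = 0.994). Of all genes tested, 4.08% did not overlap in the direction of Gadd45b and 2.73% in that of Tgfb2. Ajuba, a LIM protein of cell junctions, had a log2 fold change of 1.12 and was highest in Piezo Gel+US replicate 2, at 89.8 CPM, as was the score of the whole list (0.46, against -0.45 to 0.28 elsewhere).

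The marker lists themselves moved between the groups as follows, with 0 genes called in any of them. Schwann cell markers were higher in Piezo Gel+US in 9 of 9 genes tested (median log2 fold change 1.80, where 47.1% of all genes tested were higher), 6 of them at an unadjusted p below 0.05 (1.38% of all genes tested), and neutrophil markers in 5 of 6 (median 0.29). The Schwann cell sum was 7160, 70691 and 12929 CPM in Piezo Gel+US replicates 1 to 3 and 4420 to 7210 CPM in Gel+US. By score, Piezo Gel+US replicate 1 (-0.40) lay below Gel+US replicate 2 (-0.10). Lower in Piezo Gel+US were 12 of 12 neuron markers (median -0.53), against 52.9% of all genes tested. So were astrocyte (10 of 11, median -0.24), microglia (8 of 8, -0.33), T cell (8 of 8, -0.63) and ependymal markers (10 of 10, -0.77). Piezo Gel+US replicate 2 had the lowest astrocyte, microglia and ependymal scores of all libraries, and Gel+US replicate 3 the lowest T cell score. The other lists were mixed, with medians of -0.46 for sensory ganglion neurons (5 of 8 lower), 0.018 for oligodendrocytes (5 of 12 lower), -0.047 for their precursors (5 of 8 lower), -0.23 for macrophages (6 of 10 lower), -0.24 for fibroblasts (8 of 12 lower), -0.051 for endothelial cells (6 of 11 lower), -0.24 for pericytes and smooth muscle (6 of 8 lower) and -0.18 for skeletal muscle (4 of 6 lower). At an unadjusted p below 0.05 there were also 2 ependymal genes and 1 pericyte and smooth muscle gene lower, and 2 skeletal muscle, 1 endothelial and 1 precursor gene higher, in Piezo Gel+US, and 0 genes of the other 9 marker lists. The part of these shifts in the channel values was not tested.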

How the data were processed

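The authors deposited counts per gene, not normalized, in a single table for 6 libraries of poly(A)-selected RNA from tissue of about 5 mm3. The submitters' processing notes list DESeq2 1.20.0, featureCounts 1.5.0-p3, HISAT2 2.0.5 and fastp 0.19.7 and give no role for any. The genome build and whether counting used strand are not given in the sources used here. None of the table's gene identifiers occurs in RefSeq GRCr8 (0 matches, 15093 shared symbols), so table coordinates are not printed. The gene identifiers and the gene lengths behind RPKM therefore follow an annotation other than RefSeq GRCr8. Absent rows can also differ from it, since Trpv2 is in RefSeq GRCr8 and has no row in the table. Which assembly and species that annotation describes was not tested. Libraries were grouped by their labels.

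Genes were tested with edgeR 4.0.16 in R 4.3.3 (TMM factors, filterByExpr with minimum count 10 and total 15, robust quasi-likelihood F test, group only), with Benjamini-Hochberg adjustment over 17066 genes and a call at 0.05. The same code was run on simulated data as a check of the code. Its power at the spread of these libraries is not reported here. CPM used TMM-scaled sizes, and RPKM the deposited gene length. Log2 CPM used a prior count of 2. Errors are SD over libraries, labelled as biological replicates. Intervals and p-values rest on 3 libraries a group, and 17212653 to 21436820 counts per library make counting error small except for Trpv4.

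Members and lists were chosen with earlier results of these data known. Named are the members, 3 genes most like each, 3 genes of lowest p per pathway list, and markers by level, with Ckm, Scn10a, Scn11a, Mrgprd and the genes below the filter chosen after their values were seen. Deviations from group means correlated at 0.253, 0.296 and 0.251 between libraries of equal number, each above 0.1. So was 1 of the 6 unmatched pairs (Piezo Gel+US replicate 3 with Gel+US replicate 1, 0.198). The numbers may pair the samples, which was not tested, and the block was kept as an alternative fit. The possible pairing comes from the data, and the labels name no shared litter or day. Single values of some marker genes are not reported here. Alternatives were RLE factors, no filter, DESeq2 1.42.0, the replicate block, each library left out, unscaled library size, medians and a prior count of 0.5.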

Additional observations from a re-analysis of the deposited data

How the results depend on the processing

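Under all 10 alternative fits 0 genes and 0 members were called. Genes at an unadjusted p below 0.05 numbered 359 of 17066 in the edgeR fit and 986 of 17066 with the replicate block. With DESeq2, which had no low-count filter, they numbered 652 of 23195. With 1 library left out they ran from 141 of 17404 to 775 of 17389. Members at that level numbered 2 with the replicate block and 0 to 2 with 1 library left out. The block changed no adjusted call. It turned the sign of the Piezo1 log2 fold change, 0.11 with the block against -0.029 without it. With 1 library left out the log2 fold change ran from -0.35 to 0.44 for Piezo1, from -0.0035 to 1.76 for Piezo2, from -0.30 to 0.19 for Pkd2, from -0.49 to 0.25 for Tmem63a, from -0.13 to 0.076 for Tmem63b and from -0.92 to 0.057 for Tmem63c, while Trpv4, Trpm7 and Asic2 stayed below 0. Asic2 and Tmem63c were at an unadjusted p of 0.0155 and 0.0288 without Gel+US replicate 2 (4.46% of genes tested), and Piezo2 at 0.0476 without Piezo Gel+US replicate 1 (3.83%). The cause of these shifts was not tested. RLE factors, no low-count filter and DESeq2 kept the sign of all 9 members. Mean RPKM moved by less than 1 SD with unscaled library sizes or medians, but that SD is wide for Piezo2, whose median was 1.44 against a mean of 2.52, and with a prior count of 0.5 no marker relation changed sign or passed an adjusted p of 0.05. Depth limits only Trpv4 among the members, at 10 to 61 counts.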
